A study of Homo sapiens with 36 samples.

Results

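The genes described here are 51 that encode the machinery of the G2 phase and of mitosis, chosen by name. They were followed in MDA231, SUM159PT and BT549, 3 human cell lines derived from breast cancers, under knockdown of DUSP4 and under inhibition of MEK. A gene was measured where an array probe carried its symbol and no other, which held for 47 of the 51. The other 4 genes, BUB1B, KIF20A, PTTG1 and NCAPG, had only probes that the annotation shares with BUB1B-PAK6, CDC23, PTTG3P and LCORL, and they were left out. The 47 were compared with all 17958 genes that had such a probe.

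Transcripts of this set rise as cells pass from S phase through G2 into mitosis and fall again after division. CDK1 with cyclins A and B drives entry, Polo and Aurora kinases build the spindle, the checkpoint proteins hold the anaphase-promoting complex (APC/C) until chromosomes are attached, and kinesins, PRC1 and ANLN complete division. Transcription of the set is repressed in quiescent and G1 cells by the DREAM complex, in which the MuvB core is joined by the pocket proteins p130 or p107 (RBL2, RBL1) and E2F4 or E2F5, and is activated later by MuvB with B-MYB (MYBL2) and by FOXM1. In breast tumours, high levels of these genes are a familiar sign of proliferation.

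The 36 arrays formed 12 groups of 3, with 4 groups in each line. The siCONTROL cells were transfected with non-targeting siRNA at 10 nM and given DMSO, and the siDUSP4 cells received 10 nM of siRNA against DUSP4, a phosphatase that inactivates ERK and related kinases, with DMSO. Cells of the AZD6244 4h and AZD6244 24h groups received the control siRNA and 1 uM AZD6244 (selumetinib), an inhibitor of the ERK-activating kinases MEK1 and MEK2, for the last 4 or 24 h. All cells were harvested 96 h after transfection, and each line grew in a medium of its own, so line and medium cannot be told apart. Arrays within a group carry the letters A, B and C. Nothing in the labels ties the letters to separate cultures, so the p-values here measure the spread between arrays alone, which may be technical. The labels of 24 arrays contradict themselves over SUM159PT and BT549, where the title and cell line say one and the source name and description say the other, and the titles were followed. The design asks how the lines respond when DUSP4 is lost or MEK is inhibited. The 3 comparisons with siCONTROL in a line share its siCONTROL arrays.

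All values are deposited log2 signals, changes are log2 differences with the standard error (SE) from limma, and a gene was called at a limma adjusted p under 0.05 over all genes. Whether arrays of treated and siCONTROL groups overlapped is given as description. The share of all genes without such overlap was not counted. DUSP4 itself fell from a mean of 10.06 to 7.64 with siDUSP4 in MDA231, from 7.14 to 5.30 in SUM159PT and from 7.13 to 4.89 in BT549. The DUSP4 transcript was also lower with AZD6244, so its loss was not confined to the siDUSP4 groups. At 4 h and 24 h it stood at 7.70 and 8.80 in MDA231, 5.79 and 6.29 in SUM159PT, and 6.47 and 6.41 in BT549. Only the BT549 change at 4 h was not called (adjusted p = 0.062). Vimentin was high (11.89 to 12.15) and ESR1 low (4.09 to 4.31) in the siCONTROL cells of every line. RB1 stood at 6.83 in BT549 siCONTROL cells against 10.31 in MDA231 and 9.40 in SUM159PT. CDKN2A stood at 9.82 in BT549 against 4.23 in MDA231 and 4.12 in SUM159PT. The epithelial gene EPCAM stood at 8.39 in MDA231 against 5.52 in SUM159PT and 4.89 in BT549. ERBB2 lay between 7.32 and 7.77 in the siCONTROL cells, and CDH1 between 4.23 and 5.04. Of 12 measured blood and endothelial markers, 0 to 2 were called in any comparison with siCONTROL, and of 7 fibroblast markers 0 to 2. Of all genes, 0.49% to 14.5% were lower and 0.161% to 7.86% higher. Not all these markers were low or unchanged. PECAM1 stood at 7.37 in MDA231 siCONTROL cells and fell by 1.65 at AZD6244 24h (limma adjusted p = 1.8e-10). CD68 stood at 10.88 in MDA231, 9.72 in SUM159PT and 9.46 in BT549 siCONTROL cells. The fibroblast genes DCN and PDGFRA were at 10.15 and 10.92 in SUM159PT siCONTROL cells and below 4.7 in both other lines. PDGFRB (8.05) and COL1A1 (7.49) were also highest in SUM159PT. By contrast, LUM (5.72), COL3A1 (6.78) and COL1A2 (4.92) were highest in BT549, and in SUM159PT they stood at 4.09, 5.05 and 4.61. The median of an array lay between 5.12 and 5.40, and the upper quartile was lowest on array B of MDA231 AZD6244 4h (7.48) and array A of BT549 AZD6244 24h (7.50). For genes of the mitotic set, total counts of calls and the called changes detailed below that rest on these arrays are given with and without them. DUSP4, the marker genes, the other gene lists and the shares and medians of all genes are given only with these arrays included. How far those values depend on these arrays is therefore not shown.

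RefSeq (GRCh38.p14) gave the 250 bases before an annotated start for 40 of the 47 genes, and BIRC5, UBE2C, BUB3, TTK, AURKA, TPX2 and FOXM1 had no entry. Shown here are the 4 genes whose mean change over the 3 lines at AZD6244 24h was lowest. NDC80 is a kinetochore protein that binds microtubules, KIF20B a kinesin of late mitosis, MAD2L1 a spindle checkpoint protein and HMMR a spindle and hyaluronan-binding protein. Capitals mark CCAAT, the box bound by NF-Y, or TTTGAA, the core of the cell cycle homology region (CHR) bound by MuvB, on either strand. Each sequence reads 5′ to 3′ on the gene's strand, where a CCAAT of the opposite strand appears as ATTGG.
NDC80, chr18:2571307-2571556, plus strand: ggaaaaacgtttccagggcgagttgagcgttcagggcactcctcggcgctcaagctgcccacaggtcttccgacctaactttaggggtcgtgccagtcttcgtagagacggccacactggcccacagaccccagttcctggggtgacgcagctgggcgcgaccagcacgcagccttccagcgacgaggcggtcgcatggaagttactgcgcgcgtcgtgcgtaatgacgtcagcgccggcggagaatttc
KIF20B, chr10:89701340-89701589, plus strand: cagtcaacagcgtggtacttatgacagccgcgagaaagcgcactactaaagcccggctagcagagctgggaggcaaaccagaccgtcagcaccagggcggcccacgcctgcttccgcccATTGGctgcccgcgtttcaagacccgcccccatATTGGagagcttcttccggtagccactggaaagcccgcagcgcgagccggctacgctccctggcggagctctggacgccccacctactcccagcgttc
MAD2L1, chr4:120066849-120067098, minus strand: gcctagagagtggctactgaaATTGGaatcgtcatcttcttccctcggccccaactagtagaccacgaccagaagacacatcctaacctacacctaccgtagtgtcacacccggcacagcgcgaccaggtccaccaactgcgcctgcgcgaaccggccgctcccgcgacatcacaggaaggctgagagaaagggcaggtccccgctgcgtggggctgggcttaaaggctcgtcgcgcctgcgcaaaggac
HMMR, chr5:163460382-163460631, plus strand: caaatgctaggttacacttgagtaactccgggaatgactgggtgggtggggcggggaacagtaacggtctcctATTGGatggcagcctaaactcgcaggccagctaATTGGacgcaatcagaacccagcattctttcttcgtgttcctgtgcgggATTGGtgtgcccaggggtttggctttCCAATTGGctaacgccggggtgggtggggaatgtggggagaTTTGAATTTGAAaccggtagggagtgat

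HMMR held CCAAT 5 times, 1 on the gene's strand overlapping another on the opposite strand, and TTTGAA in tandem at 28 and 22 bases before the start. KIF20B held 2 CCAAT boxes and MAD2L1 held 1, all on the opposite strand, and the NDC80 window held none of the motifs searched. Over all 50 windows of the 40 genes, searched on both strands, CCAAT was present in 70.0% against 32.01% of all 35116 windows in the table. The CHR core TTTGAA was in 46.0% against 13.32%, its variant TTTAAA in 11 of the 50 against 11.32%, and the E2F-type sites TTTGGCGC and TTTCCCGC in 4.0% against 0.55% and 2.0% against 1.39%. These are matches of letters in fixed windows, and several windows belong to the same gene.

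**Figure D1:**
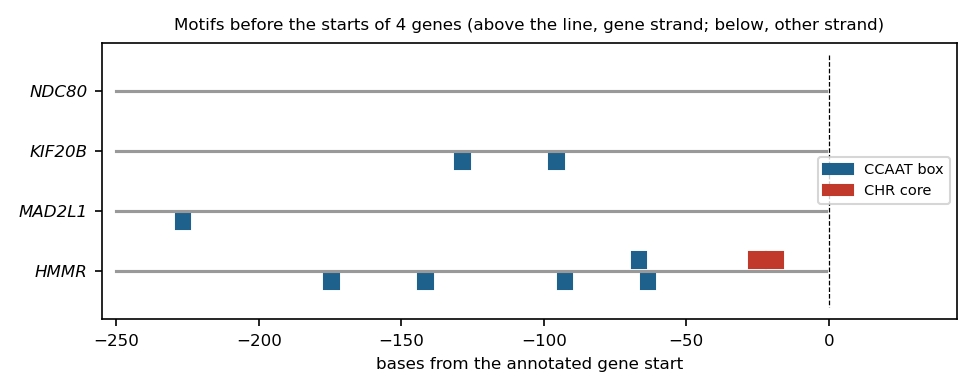
Positions of CCAAT boxes (blue) and CHR cores (red) in the 250 bases before the annotated start of NDC80, KIF20B, MAD2L1 and HMMR, in bases from the start, with the gene's strand above each line and the other strand below. HMMR carries 5 CCAAT boxes and a tandem CHR core close to the start, and NDC80 carries neither motif.

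The lines differed in these genes before any treatment. In siCONTROL cells 46 of the 47 genes differed between lines by limma's F test, all but TOP2A (adjusted p = 0.12), against 62.7% of all genes. The mean was lowest in SUM159PT for 41 genes, in BT549 for 4 and in MDA231 for 2. It was highest in MDA231 for 35 and in BT549 for 12. For 36 genes all SUM159PT arrays lay below all arrays of the other lines, which held for 16.7% of all genes, and for 28 genes all MDA231 arrays lay above the rest, which held for 14.6%. The median level of the 47 was 9.70 in MDA231, 9.40 in BT549 and 8.59 in SUM159PT, while the median of all genes was 6.36, 6.45 and 6.38. In bulk RNA a smaller share of cells in G2 and mitosis and less of the transcript per cell cannot be told apart. The B-MYB gene MYBL2 separated all 3 lines, with siCONTROL arrays at 10.72, 10.76 and 10.71 in BT549, 9.27, 9.33 and 9.43 in MDA231 and 8.49, 8.34 and 8.34 in SUM159PT. FOXM1 stood at 9.79, 9.80 and 9.77 in BT549, 9.64, 9.73 and 9.85 in MDA231 and 8.46, 8.40 and 8.28 in SUM159PT. The BT549 and MDA231 arrays overlapped for FOXM1, and the SUM159PT arrays were apart from both.

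With siDUSP4, most mitotic genes that changed were lower in MDA231 and higher in BT549. In MDA231, 13 of the 47 were lower and 1 was higher, where 9.77% and 7.86% of all genes were, and the median change of the 47 was -0.20 against 0.01 for all genes. In BT549, 19 were higher and 1 lower, where 4.97% and 9.22% of all genes were, with a median of 0.29 against 0.01. In SUM159PT 1 gene was lower and 0 were higher, where 1.78% and 1.05% of all genes were, with a median of -0.11 against -0.04. At an unadjusted p under 0.05, SUM159PT had 5 genes lower and 0 higher, and the share of all genes at that level was not counted. The number of calls changed by over 1.5 times only when quantile normalization was repeated, to 20 lower and 2 higher in MDA231 and 1 lower and 32 higher in BT549, and, in SUM159PT, to 2 lower with a fit of the 2 groups alone.

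**Figure D2:**
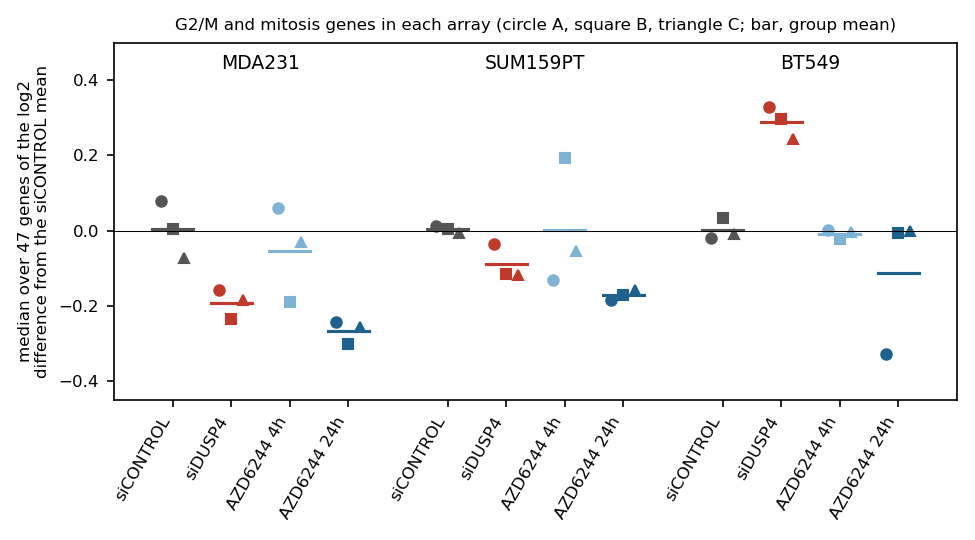
Median over the 47 genes of each array's log2 difference from the siCONTROL mean of its line, with 3 arrays a group and bars for group means. The siDUSP4 arrays lie between -0.24 and -0.16 in MDA231 and between 0.24 and 0.33 in BT549, and array A of BT549 AZD6244 24h lies at -0.33, apart from arrays B and C.

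The members with the lowest estimates in MDA231 were ASPM, PRC1 and KIF14. ASPM, which organises spindle poles, read 9.94, 9.91 and 9.84 in siCONTROL and 9.07, 8.94 and 9.15 with siDUSP4. All siDUSP4 arrays were below all siCONTROL arrays, and ASPM fell by 0.84 (SE 0.11, adjusted p = 8.6e-07), to 55.8% of control. PRC1, the protein that bundles midzone microtubules, went from 10.34, 10.35 and 10.35 to 9.66, 9.49 and 9.57 and fell by 0.78 (SE 0.09, adjusted p = 4e-08). KIF14, a kinesin that acts with PRC1 and citron kinase in cytokinesis, went from 9.56, 9.52 and 9.30 to 8.79, 8.60 and 8.90 and fell by 0.70 (SE 0.11, adjusted p = 1.8e-05). Neither gene's groups overlapped. With the spindle protein DLGAP5 (-0.47), 3 of the 7 genes of the spindle, midzone and cytokinesis were called lower. Among 8 kinesins KIF14, KIF20B and the spindle motor KIF15 were called, at -0.70, -0.56 and -0.55, while the other 5 ranged from -0.12 to 0.07. At the kinetochore NUF2, the partner of NDC80, was called at -0.50, the motor CENPE at -0.46 and CENPF at -0.34. CENPI, of the inner kinetochore, was at 0.34 (SE 0.16, adjusted p = 0.17). The mitotic kinase PLK1 (-0.43), separase (ESPL1, -0.39) and the condensin subunit SMC4 (-0.29) were also called lower. No called change was seen among the 6 genes of mitotic entry, where cyclin A2 (CCNA2) was at 0.02 with a 95% interval of -0.22 to 0.26 and CDK1 at 0.01 with an interval of -0.29 to 0.32.

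The transcription factors of the set moved in opposite directions in MDA231. FOXM1 read 9.64, 9.73 and 9.85 in siCONTROL and 9.23, 9.37 and 9.28 with siDUSP4, and fell by 0.45 (SE 0.10, adjusted p = 0.0011). MYBL2 read 9.27, 9.33 and 9.43 in siCONTROL and 9.66, 9.87 and 9.81 with siDUSP4, and rose by 0.43 (SE 0.12, adjusted p = 0.0081). The groups did not overlap for either gene. The MYBL2 call was lost in a fit of the MDA231 arrays alone (adjusted p = 0.079).

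In BT549 genes rose in every functional group but the transcription factors. CENPI went from 8.77, 8.85 and 8.99 to 9.74, 9.71 and 9.63 and rose by 0.82 (SE 0.16, adjusted p = 0.00051), to 177% of control. CDK1, the kinase of mitotic entry, went from 9.10, 8.99 and 8.83 to 9.61, 9.58 and 9.57 and rose by 0.61 (SE 0.15, adjusted p = 0.0038). MAD2L1 went from 9.01, 9.04 and 8.74 to 9.62, 9.49 and 9.47 and rose by 0.60 (SE 0.14, adjusted p = 0.0033). In all of these every siDUSP4 array was above every siCONTROL array. Of the 8 mitotic kinases and regulators 4 rose, namely the Aurora kinase AURKB (0.41), its partners INCENP (0.51) and survivin (BIRC5, 0.38), which form the chromosomal passenger complex, and the checkpoint kinase TTK (0.42). The checkpoint kinase BUB1 (0.41) and ESPL1 (0.56) rose with MAD2L1. Topoisomerase TOP2A (0.51) and SMC4 (0.30) rose among the 3 chromosome structure genes, and the cytokinesis genes ECT2 (0.57) and ANLN (0.55) rose with the spindle protein NUSAP1 (0.39). The kinesins KIF11 (0.43) and KIF2C (0.38) and the kinetochore genes NUF2 (0.42) and CENPE (0.44) complete the genes called higher, with CCNA2.

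The mitotic entry genes of BT549 were unequal. CCNA2 changed by 0.58 (SE 0.12, adjusted p = 0.00074), while cyclins B1 and B2 were at -0.11 (95% interval -0.31 to 0.10) and -0.14 (-0.38 to 0.10). The phosphatase CDC25C, which activates CDK1, was at -0.04 (-0.27 to 0.19), the centrosome kinase NEK2 at -0.02 (-0.31 to 0.26) and PLK1 at -0.06 (-0.24 to 0.12). These 5 genes and PRC1 were the members with a negative estimate in BT549, and the other 41 were positive. MYBL2 stood at 10.72, 10.76 and 10.71 in siCONTROL and 11.10, 11.02 and 11.08 with siDUSP4, a difference of 0.34 (SE 0.12, adjusted p = 0.054) in groups that did not overlap. FOXM1 went from 9.79, 9.80 and 9.77 to 9.93, 9.98 and 9.94, a difference of 0.16 (SE 0.10, adjusted p = 0.33). The FOXM1 groups did not overlap either. Neither factor was called, although MYBL2 was called under 6 of 15 alternatives, with the smallest adjusted p (0.0024) when quantile normalization was repeated, and FOXM1 under that alternative alone (0.21, adjusted p = 0.043).

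PRC1 was the member called lower in all 3 lines with siDUSP4. In SUM159PT it read 9.84, 9.83 and 9.84 in siCONTROL and 9.30, 9.31 and 9.38 with siDUSP4, and fell by 0.51 (SE 0.09, adjusted p = 0.00025), the line's call among the 47. In BT549 it read 9.82, 9.89 and 9.97 and 9.57, 9.73 and 9.56, and fell by 0.28 (SE 0.09, adjusted p = 0.025) while most other members were positive. In none of the lines did the groups overlap. The size of the fall differed between lines (F test, adjusted p = 0.012), and the BT549 call was lost in a fit of that line alone (0.093) and without any of arrays B or C of siCONTROL or A or C of siDUSP4 (0.072 to 0.11).

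**Figure D3:**
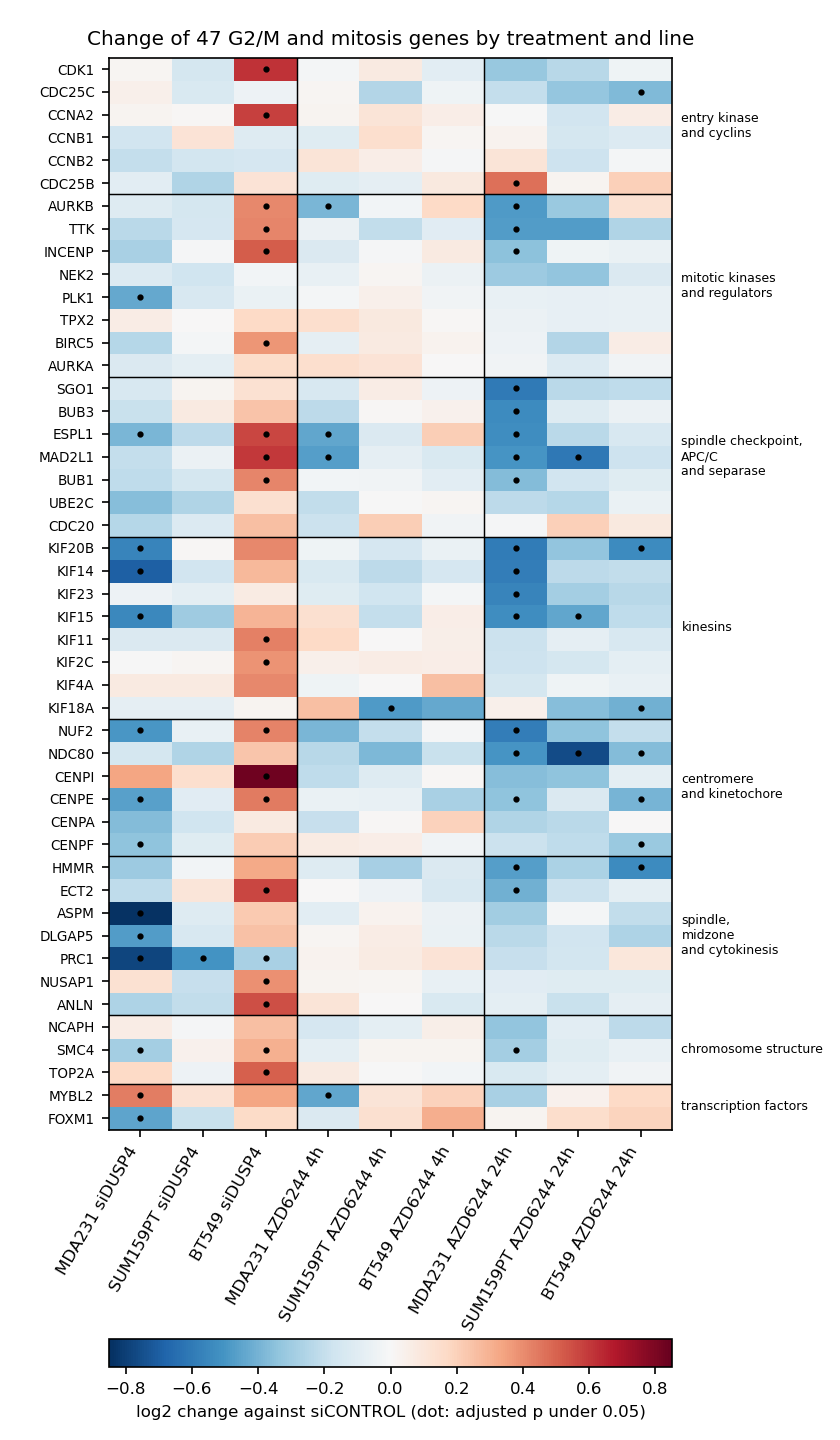
Log2 change against siCONTROL of the 47 genes, grouped by role, in 9 comparisons (columns), with red for higher, blue for lower and a dot where the adjusted p was under 0.05. The siDUSP4 columns are mostly blue in MDA231 and red in BT549, PRC1 is blue in all 3, and the MDA231 AZD6244 24h column holds 18 dots on blue and 1 on red, CDC25B.

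The difference between lines was tested directly. For siDUSP4, 26 of the 47 genes differed between lines, where 15.5% of all genes did. In 21 of the 26 the estimate was negative in MDA231 and positive in BT549. Selection by a line difference favours estimates that lie apart, and this split was not counted among all genes that passed the test. Of the 26, 12 were called lower in MDA231 and 16 higher in BT549. CENPE, NUF2, ESPL1 and SMC4 were called in both directions. ASPM had the smallest p, with changes of -0.84 in MDA231, -0.11 in SUM159PT and 0.23 in BT549 (adjusted p = 2.5e-05). In SUM159PT ASPM read 9.05, 8.99 and 9.05 and then 9.06, 8.88 and 8.81, and in BT549 9.31, 9.50 and 9.59 and then 9.78, 9.75 and 9.54. The groups overlapped in both of these lines. KIF14 changed by -0.70, -0.17 and 0.28 (adjusted p = 0.00014). Its BT549 arrays, at 8.70, 8.66 and 8.78 and then 9.04, 9.01 and 8.92, did not overlap, and the rise was not called (0.095). CENPE changed by -0.46, -0.10 and 0.44 (adjusted p = 0.00055). It read 9.50, 9.41 and 9.29 and then 8.99, 8.84 and 8.98 in MDA231, and 9.35, 9.24 and 9.25 and then 9.79, 9.77 and 9.61 in BT549, with no overlap in either. The count of 26 ranged from 20 to 34 over the alternatives.

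**Figure D4:**
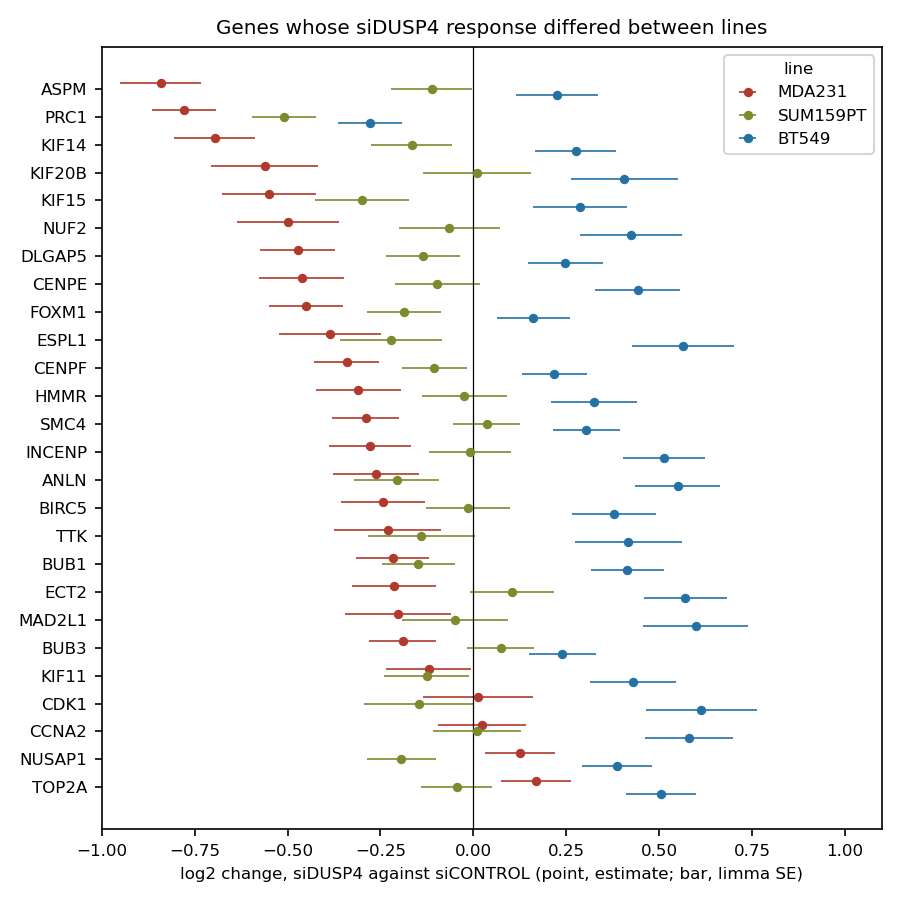
Log2 change with siDUSP4 (x axis) for the 26 genes whose response differed between lines, with MDA231 in red, SUM159PT in green and BT549 in blue, and limma standard errors as bars. In 21 genes the MDA231 point is left of 0 and the BT549 point right of it, and ASPM spans the widest range, from -0.84 to 0.23.

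After 4 h of MEK inhibition few of these genes were called. In MDA231, 4 were lower and 0 higher, where 14.5% and 1.11% of all genes were, and the median of the 47 was -0.06 against -0.13 for all genes. In SUM159PT 1 was lower and 0 higher, where 3.81% and 0.473% were. In BT549 0 were called in either direction by limma, where 0.49% were lower and 0.161% higher, and at an unadjusted p under 0.05 there were 2 lower and 1 higher. At that level MDA231 had 6 lower and 1 higher, and SUM159PT 4 lower and 0 higher, with no share of all genes counted. The medians were 0.00 in SUM159PT and -0.01 in BT549.

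The genes called in MDA231 at 4 h were MAD2L1, MYBL2, ESPL1 and AURKB. MAD2L1 read 9.51, 9.64 and 9.46 in siCONTROL and 9.47, 8.76 and 8.98 at 4 h, and fell by 0.47 (SE 0.14, adjusted p = 0.024). MYBL2 went from 9.27, 9.33 and 9.43 to 9.30, 8.64 and 8.77 and fell by 0.44 (SE 0.12, adjusted p = 0.012). ESPL1 went from 7.85, 7.97 and 8.14 to 7.97, 7.31 and 7.36 and fell by 0.44 (SE 0.14, adjusted p = 0.028). In each of them array A lay within the siCONTROL range and arrays B and C lay below it. AURKB went from 9.19, 9.43 and 9.31 to 9.42, 8.73 and 8.60 with the same split, and fell by 0.39 (SE 0.13, adjusted p = 0.044). Without array B the changes were -0.31 for MAD2L1, -0.31 for MYBL2, -0.32 for ESPL1 and -0.30 for AURKB (adjusted p from 0.18 to 0.31). The count rested on single arrays, being 0 without array B or without array C, 13 lower and 1 higher without array A, and 2, 1 and 2 without siCONTROL arrays A, B and C. It was 0 with the MDA231 arrays alone or the 2 groups alone, and 0 lower and 3 higher when quantile normalization was repeated. FOXM1 read 9.88, 9.41 and 9.56 in MDA231 at 4 h, a change of -0.12 (SE 0.10, adjusted p = 0.43), which was -0.26 and called without array A (adjusted p = 0.032) and -0.02 without array B (0.95). In BT549 FOXM1 read 10.14, 10.11 and 10.04, above every siCONTROL array, a change of 0.31 (SE 0.10, adjusted p = 0.23) that was called when quantile normalization was repeated (adjusted p = 0.0029) and without both arrays of lowest upper quartile (0.039).

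KIF18A, a kinesin that limits chromosome oscillation at metaphase, was the member whose 4 h response differed between lines, where 1.84% of all genes did (adjusted p = 0.0089). In SUM159PT it read 7.97, 7.95 and 7.78 in siCONTROL and 7.26, 7.63 and 7.36 at 4 h, and fell by 0.48 (SE 0.11, adjusted p = 0.011). In BT549 it read 9.71, 9.77 and 9.67 and 9.26, 9.20 and 9.40, a change of -0.43 (SE 0.11, adjusted p = 0.073). In MDA231 it read 9.36, 9.33 and 9.28 and 9.44, 9.54 and 9.77, a change of 0.26 (SE 0.11, adjusted p = 0.12). The groups did not overlap in any line, and the arrays were lower at 4 h in SUM159PT and BT549 and higher in MDA231. The line difference had an adjusted p of 0.018 without array B of MDA231 AZD6244 4h and 0.057 without array C, and 6 members differed without array A of that group and 2 without array C of SUM159PT AZD6244 4h. The SUM159PT call was lost without siCONTROL array A (0.06) or B (0.054), without 4 h array A (0.12) and when quantile normalization was repeated (0.066), where the count became 0 lower and 1 higher. Without 4 h array B, 2 members were called lower in SUM159PT. MYBL2 had the next smallest p for a line difference (0.055), with -0.44 in MDA231, 0.11 in SUM159PT and 0.19 in BT549. It was called without MDA231 4 h array A (0.00011) or SUM159PT 4 h array C (0.039), with quantile normalization repeated (0.033), the filter on low levels (0.038) and a trended robust variance (0.025), and was at 0.19 without MDA231 4 h array B. ESPL1 followed (0.13), with -0.44, -0.13 and 0.21, and was called without MDA231 4 h array A (0.0019).

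**Figure D5:**
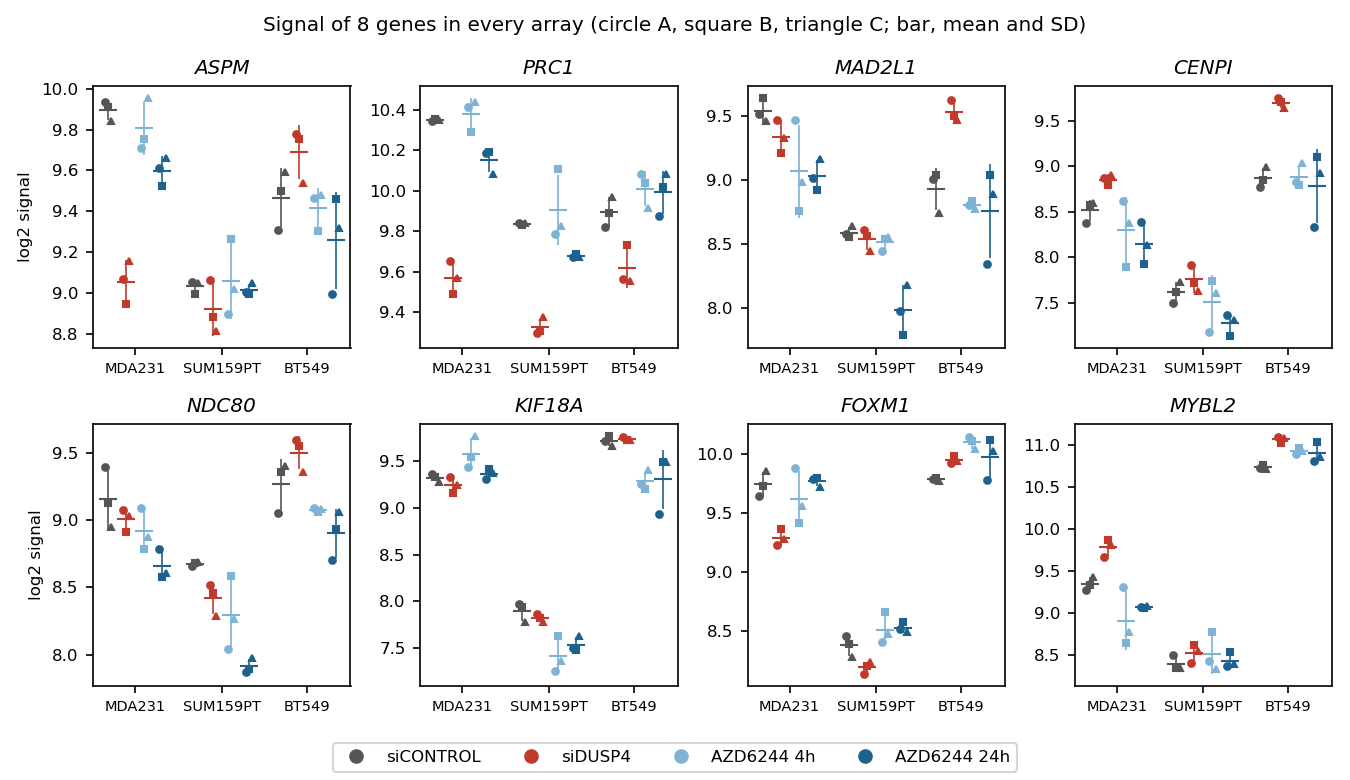
Log2 signal (y axis) of ASPM, PRC1, MAD2L1, CENPI, NDC80, KIF18A, FOXM1 and MYBL2 on every array, by line and treatment, with the mean and SD of 3 arrays. PRC1 with siDUSP4 (red) lies below siCONTROL (grey) in all lines, CENPI with siDUSP4 lies above siCONTROL in BT549, and NDC80 at AZD6244 24h (dark blue) is lowest in SUM159PT, at 7.87 to 7.98.

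By 24 h of MEK inhibition more genes of the set were called in MDA231 than in the other lines. Counts of calls do not test a difference between lines. In limma's F test of that difference 1 of the 47 passed, where 9.91% of all genes did. In MDA231 18 were lower and 1 higher, where 10.3% and 7.36% of all genes were. The median of the 47 was -0.28 there, against 0.02 for all genes. In SUM159PT 3 were lower and 0 higher, where 2.94% and 1.34% were, with a median of -0.17 against -0.01 and 43 of 47 estimates negative. In BT549 7 were lower and 0 higher, where 12.4% and 2.66% were, and the median of -0.08 was near that of all genes (-0.09). At an unadjusted p under 0.05, SUM159PT had 15 lower and 0 higher and BT549 8 lower and 0 higher. No share of all genes was counted at that level for comparison. The MDA231 count ranged from 13 to 22 over the alternatives.

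In MDA231 the spindle checkpoint and separase group had the largest share of calls, 5 of 7 genes. SGO1, shugoshin, which protects centromeric cohesion, read 9.53, 9.25 and 9.03 in siCONTROL and 8.81, 8.62 and 8.58 at 24 h, and fell by 0.60 (SE 0.14, adjusted p = 0.0013). KIF20B went from 9.26, 9.16 and 8.92 to 8.56, 8.51 and 8.48 and fell by 0.60 (SE 0.15, adjusted p = 0.0029). NUF2 went from 10.31, 9.86 and 9.62 to 9.30, 9.35 and 9.37 and fell by 0.59 (SE 0.14, adjusted p = 0.0018). None of these groups overlapped. With SGO1, the checkpoint genes BUB3 (-0.53), MAD2L1 (-0.50) and BUB1 (-0.37) and separase (-0.53) were called lower, while CDC20, the APC/C activator, was at -0.01 with a 95% interval of -0.25 to 0.23. Of 8 kinesins KIF20B, KIF14 (-0.59), KIF23 (-0.56) and KIF15 (-0.53) were called lower. Of 6 kinetochore genes NUF2, NDC80 (-0.50) and CENPE (-0.34) were. AURKB (-0.48), TTK (-0.48), INCENP (-0.35), HMMR (-0.47), ECT2 (-0.41) and SMC4 (-0.29) complete the list.

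Other members of the set had estimates near 0 in MDA231 at 24 h. CCNB1 read 10.42, 10.48 and 10.42 in siCONTROL and 10.48, 10.49 and 10.43 at 24 h, a change of 0.03 with a 95% interval of -0.18 to 0.23. PLK1 read 11.08, 11.25 and 11.17 and 11.13, 11.07 and 11.11, a change of -0.07 (-0.25 to 0.11). AURKA, TPX2, its activator on the spindle, and BIRC5 were at -0.03, -0.05 and -0.04. FOXM1 read 9.79, 9.79 and 9.72, a change of 0.03 (-0.18 to 0.23), and MYBL2 9.07, 9.06 and 9.08, a change of -0.28 (SE 0.12, adjusted p = 0.11). CDC25B, a phosphatase that activates CDK1, was the member called higher. It read 8.57, 8.80 and 8.87 in siCONTROL, 9.07, 8.29 and 8.57 at 4 h and 9.23, 9.24 and 9.17 at 24 h, and rose by 0.47 (SE 0.12, adjusted p = 0.0052). The call was lost in a fit of the MDA231 arrays alone (adjusted p = 0.079) and without siCONTROL array A (0.054).

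In SUM159PT the genes called lower at 24 h were NDC80, MAD2L1 and KIF15. NDC80 went from 8.66, 8.68 and 8.69 to 7.87, 7.90 and 7.98 and fell by 0.76 (SE 0.12, adjusted p = 0.00016), to 59.0% of control. MAD2L1 went from 8.58, 8.55 and 8.64 to 7.98, 7.79 and 8.18 and fell by 0.61 (SE 0.14, adjusted p = 0.0098). KIF15 went from 8.13, 8.07 and 8.11 to 7.70, 7.82 and 7.45 and fell by 0.44 (SE 0.13, adjusted p = 0.038). All 24 h arrays were below all siCONTROL arrays for these genes. The MAD2L1 call was lost without siCONTROL array C (adjusted p = 0.052) or 24 h array B (0.089), and the KIF15 call without any siCONTROL array or 24 h array A or C (0.076 to 0.22), when quantile normalization was repeated (0.059) and in a fit of the SUM159PT arrays alone (0.054). The count was 1 without siCONTROL array C and 2 to 9 under the other alternatives.

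In BT549 the genes called lower at 24 h were KIF20B, HMMR, KIF18A, CENPE, CDC25C, NDC80 and CENPF. KIF20B went from 7.77, 8.13 and 8.06 to 6.94, 7.76 and 7.67 and fell by 0.53 (SE 0.15, adjusted p = 0.015). HMMR went from 8.72, 9.10 and 8.96 to 8.16, 8.44 and 8.58 and fell by 0.53 (SE 0.11, adjusted p = 0.0036). KIF18A went from 9.71, 9.77 and 9.67 to 8.94, 9.49 and 9.49 and fell by 0.41 (SE 0.11, adjusted p = 0.016). In all of them array A, the array of low upper quartile, was the lowest. Its median over the 47 genes was -0.33 from siCONTROL, against -0.01 and 0.00 for arrays B and C. Without array A, 1 gene was called, HMMR at -0.42 (adjusted p = 0.047), while KIF20B was at -0.28 (0.2) and KIF18A at -0.23 (0.19). Without siCONTROL array B 1 was called and without array C 3, none were with the 2 groups alone, and repeated quantile normalization gave 1 lower and 3 higher.

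NDC80 was the member called lower at 24 h in all 3 lines. In MDA231 it read 9.39, 9.13 and 8.95 and then 8.79, 8.58 and 8.61, a change of -0.50 (SE 0.12, adjusted p = 0.0034). In BT549 it read 9.05, 9.36 and 9.40 and then 8.71, 8.94 and 9.06, a change of -0.37 (SE 0.12, adjusted p = 0.042) in groups that overlapped, which was -0.27 without array A (adjusted p = 0.24). BUB3, which carries BUB1 to kinetochores, was the member whose 24 h response differed between lines (adjusted p = 0.017), where 9.91% of all genes did. It read 10.68, 10.51 and 10.60 in MDA231 siCONTROL and 10.12, 10.02 and 10.05 at 24 h, and fell by 0.53 (SE 0.09, adjusted p = 3.8e-05). In SUM159PT BUB3 read 9.52, 9.55 and 9.51 and 9.50, 9.38 and 9.37, a change of -0.11 (SE 0.09, adjusted p = 0.63), and in BT549 9.42, 9.65 and 9.51 and 9.26, 9.61 and 9.55, a change of -0.05 (SE 0.09, adjusted p = 0.72). Its line difference had an adjusted p of 0.062 without MDA231 siCONTROL array A and 0.054 without MDA231 24 h array B, and the count of members was 3 without BT549 24 h array A and 2 without array B or C, with BUB3 at an adjusted p of 0.0017 without array A. AURKB came next (adjusted p = 0.076), with arrays at 8.81, 8.81 and 8.87 in MDA231, 7.25, 7.62 and 7.65 in SUM159PT and 9.13, 9.29 and 9.37 in BT549 at 24 h. Against siCONTROL AURKB was at -0.48, -0.32 and 0.13, and its line difference was called with quantile normalization repeated (0.0039), medians aligned (0.044) and both arrays of lowest upper quartile left out (0.04). KIF18A followed (0.1), with 0.04, -0.36 and -0.41, and was called without BT549 24 h array B (0.047) or C (0.049). When quantile normalization was repeated, 13 members differed between lines at 24 h.

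The step from 4 h to 24 h does not use the siCONTROL arrays. In MDA231 13 of the 47 genes were lower at 24 h than at 4 h and 1 was higher, where 4.48% and 20.4% of all genes were, so that the median of the 47 was -0.21 while that of all genes was 0.12. Of 8 kinesins 5 were lower, led by KIF15 at -0.66 (SE 0.13, adjusted p = 0.00021) and KIF20B at -0.56 (SE 0.15, adjusted p = 0.0046). The gene that was higher was CDC25B at 0.57 (SE 0.12, adjusted p = 0.00067). In SUM159PT MAD2L1 was lower (-0.53 (SE 0.14, adjusted p = 0.033)) and 0 were higher, where 0.685% and 2.32% of all genes were. In BT549 KIF20B, HMMR and CENPF were lower and 0 higher, where 5.82% and 1.91% were, and 1 was called without 4 h array A and 0 without 4 h array B or C or 24 h array A. At an unadjusted p under 0.05 SUM159PT had 14 lower and 0 higher, and BT549 8 and 0, with no share of all genes counted. Without 4 h array B, 12 members were lower and 1 higher in MDA231, with KIF15 at -0.73 (adjusted p = 0.00039), KIF20B at -0.62 (0.0081) and CDC25B at 0.40 (0.016). The MDA231 count of 14 was 8 without 4 h array C, 9 without 24 h array B or C, 9 with the MDA231 arrays alone, 1 with the 2 groups alone, and 33 when quantile normalization was repeated, of which 32 were lower. In SUM159PT the call was lost without 4 h array B or C or 24 h array A or B.

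Another 50 genes of G2 and mitosis, of which 47 were measured, were counted the same way. With siDUSP4 11 were lower and 3 higher in MDA231, where 9.77% and 7.86% of all genes were, so that the share higher was below that of all genes. In SUM159PT 2 were lower, where 1.78% of all genes were, and in BT549 21 were higher, where 4.97% were. The median change of the list was -0.14 in MDA231, -0.07 in SUM159PT and 0.32 in BT549. NCAPD2, a condensin subunit, changed by -0.54 in MDA231 and 0.51 in BT549, with PSRC1 at -1.02 in MDA231 and GTSE1 at 0.76 in BT549. At 24 h of AZD6244 20 were lower in MDA231, where 10.3% of all genes were, and 5 in SUM159PT, where 2.94% were. In BT549 3 were lower, a smaller share than the 12.4% of all genes. CENPK, an inner kinetochore gene, changed by -1.01 in MDA231 and -0.50 in SUM159PT, and HJURP, the chaperone that loads CENPA, by -0.96 and -0.42. At 4 h 2 were lower in MDA231, HJURP at -0.51 and CENPW at -0.52, where 14.5% of all genes were.

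The genes of the MuvB core, its E2F and pocket protein partners numbered 13, of which 12 were measured. With siDUSP4 1 was lower and 1 higher in MDA231, 2 were lower in SUM159PT and 3 were higher in BT549, where 9.77% and 7.86%, 1.78%, and 4.97% of all genes were. RB1 in BT549 rose from a mean of 6.83 to 8.03 (change 1.20, SE 0.09, adjusted p = 4.8e-11). RBL1, which encodes p107, fell by 1.18 in MDA231 (SE 0.11, adjusted p = 3.3e-09) and by 0.60 in SUM159PT (SE 0.11, adjusted p = 0.0012). TFDP2, an E2F partner, was the other call in MDA231, at 0.60, and LIN52, a MuvB subunit, the other in SUM159PT, at -0.54. In BT549 MYBL1 (0.50) and RBBP4 (0.26) were higher with RB1. At AZD6244 24h 6 of the 12 were lower in MDA231, led by the MuvB subunit LIN9 (-0.83), RBL1 (-0.60), LIN52 (-0.61) and E2F4 (-0.46), where 10.3% of all genes were lower. In BT549 3 were lower, where 12.4% were. Of 14 measured APC/C subunits and cofactors, 0 to 2 were called in any comparison with siCONTROL. Over these comparisons 0.49% to 14.5% of all genes were lower and 0.161% to 7.86% higher. The 2 higher in BT549 with siDUSP4, where 4.97% of all genes were, were FBXO5 and CDC26. FBXO5, which encodes the APC/C inhibitor EMI1, rose by 0.64 in BT549 with siDUSP4 (SE 0.18, adjusted p = 0.011).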

How the data were processed

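Total RNA from cell lines was hybridised to 36 Affymetrix arrays. The deposited values are log2 signals. According to the submitters' processing notes, the authors used RMA and Affymetrix Expression Console 1.1; its options and the design's genome build were not given in the sources used here. Of 33297 probes, 19181 carry 1 gene symbol, 2055 several, and 12061 are unnamed here. Where a gene had several single-symbol probes (895 genes, CDC20 and BIRC5 among the members), the probe of highest mean was used, giving 17958 genes with no filter.

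One model with 12 group means was fitted with limma 3.58.1 in R 4.3.3 (lmFit, eBayes, 24 residual and 7.8 prior degrees of freedom), with Benjamini-Hochberg adjustment over all genes, and F tests for line differences. The script was tested on simulated data. The members, lists and rules were chosen with earlier results of these data known. Values per array are given for the 3 called members with the largest fall and rise per comparison and the 3 of smallest p per line difference. They are also given for FOXM1 and MYBL2, and for CCNB1 and PLK1, named after their values were seen. For line differences, FOXM1 and MYBL2 the text prints them for some lines and treatments only. Deviations of same-letter arrays correlated from -0.41 to 0.45. All 3 correlations were over 0.1 only for SUM159PT AZD6244 4h. The reported fit paired no comparison by letter, that one included, and the letter entered only as a block among the alternatives. Alternatives were repeated quantile normalization, aligned medians, the letter as a block, a filter on levels under the probe median (5.33), the mean of all probes, a trended robust variance, smaller sets of arrays and each array left out. The number of arrays limits the precision. Genome-wide promoter windows came from RefSeq (GRCh38.p14).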

Additional observations from a re-analysis of the deposited data

Results flagged for a closer look

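The genes in this section are those whose response differed between the 3 lines in limma's F test of the difference itself. No cause was tested. Groups of 3 arrays are too small for a test of outlying arrays.

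For siDUSP4, the genes of the spindle, midzone and cytokinesis were ASPM (adjusted p = 2.5e-05), ANLN (0.00057), DLGAP5 (0.0017), ECT2 (0.0021), NUSAP1 (0.0073), PRC1 (0.012) and HMMR (0.019). Kinesins were KIF14 (0.00014), KIF15 (0.003), KIF20B (0.0034) and KIF11 (0.018), and kinetochore genes were CENPE (0.00055), NUF2 (0.0033) and CENPF (0.0054). The checkpoint and separase genes were ESPL1 (0.0013), BUB1 (0.0019), MAD2L1 (0.0097) and BUB3 (0.048). The mitotic kinases and their partners were INCENP (0.0015), BIRC5 (0.018) and TTK (0.045), and the entry genes were CCNA2 (0.02) and CDK1 (0.022). SMC4 (0.004), TOP2A (0.012) and FOXM1 (0.0071) complete the 26 of the 47, where 15.5% of all genes differed. In 21 of them the estimate was negative in MDA231 and positive in BT549, a split not counted among all genes that passed the same test. RB1 in BT549, at 1.20 with siDUSP4, moved in the comparison in which the BT549 rises were seen, and its part in them was not tested.

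For AZD6244 4h the response of KIF18A differed between lines (adjusted p = 0.0089), with 0.26 in MDA231, -0.48 in SUM159PT and -0.43 in BT549. It was 1 of the 47, where 1.84% of all genes differed. For AZD6244 24h the response of BUB3 differed (adjusted p = 0.017), with -0.53, -0.11 and -0.05. BUB3 was 1 of the 47, a smaller share than the 9.91% of all genes.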

How the results depend on the processing

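Of 271 alternative counts of called members, 200 stayed within 1.5 times the count reported, and 0 named changes reversed. These counts add both directions, so a count could stay within 1.5 times while its direction changed. With quantile normalization repeated, the calls for MDA231 4 h and SUM159PT 4 h went from lower to higher. Those for BT549 24 h became mostly higher. Under that alternative FOXM1 was called by limma at BT549 24 h (0.35, adjusted p = 0.0043, against 0.19 and 0.19 reported). It was also called at SUM159PT 4 h (0.26, adjusted p = 0.039, against 0.13 and 0.46). The counts for MDA231 AZD6244 24h and the siCONTROL and siDUSP4 line differences stayed within 1.5 times throughout. Repeated quantile normalization gave 22 for MDA231 siDUSP4 (reported 14), 33 for BT549 siDUSP4 (20), 2 for BT549 AZD6244 4h (0), 4 for BT549 24 h (7), 33, 9 and 0 for 24 h against 4 h in MDA231, SUM159PT and BT549 (14, 1 and 3), and 2 and 13 for the line differences at 4 h and 24 h (1 and 1). Aligned medians gave 2 for SUM159PT 4 h (1), 5 for SUM159PT 24 h (3) and 2 for the line difference at 24 h. The filter gave 5 for SUM159PT 24 h, 1 for BT549 4 h and 2 for the line difference at 4 h, and the trended robust variance gave the same 5, 1 and 2 and also 2 for SUM159PT 24 h against 4 h. Leaving out both arrays of lowest upper quartile, chosen after seeing the data, gave 0 for MDA231 4 h (4), 2 for SUM159PT 4 h, 6 for SUM159PT 24 h, 2 for BT549 4 h, 2 for BT549 24 h, 5 and 0 for 24 h against 4 h in SUM159PT and BT549, and 5 for the line difference at 24 h. Arrays of the line alone gave 0 for MDA231 4 h, 2 for SUM159PT 4 h, 1 for BT549 24 h, and 9 and 0 for 24 h against 4 h in MDA231 and BT549. The 2 groups alone gave 0 for MDA231 4 h, 2 for SUM159PT siDUSP4 (1), 9 for SUM159PT 24 h, 0 for BT549 24 h, and 1 and 0 for 24 h against 4 h in MDA231 and BT549. The cause was not tested, beyond the fewer arrays in some fits.

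Leaving out each array in turn, which leaves 2 arrays in a group, gave 11 to 14 for MDA231 siDUSP4, 0 to 14 for MDA231 4 h, 13 to 19 for MDA231 24 h, 0 to 2 for SUM159PT 4 h, 1 to 2 for SUM159PT 24 h, 14 to 17 for BT549 siDUSP4, 1 to 7 for BT549 24 h, and 8 to 17, 0 to 1 and 0 to 4 for 24 h against 4 h. The line differences gave 20 to 26 for siDUSP4, 0 to 6 at 4 h and 0 to 3 at 24 h. With the replicate letter as a block the counts were 14, 3 and 19 in MDA231, 1, 1 and 3 in SUM159PT and 20, 0 and 7 in BT549 for siDUSP4, 4 h and 24 h. Blocking changed no count by over 1.5 times. Of 345 refits of the 23 named falls and rises, 287 kept their call and 58 lost it. With 3 arrays a group, changes near 0.3 on the log2 scale were often not called.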
